A study of Mus musculus with 9 samples.

Results

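The 10 genes Nfkb1, Nfkb2, Rela, Rel, Nfkbia, Nfkbie, Nfkbiz, Tnfaip3, Tnip1 and Cd14 encode NF-kappaB subunits, inhibitors of the pathway and a receptor subunit upstream of it. They were chosen by name, with earlier results of these data known. They were matched by Ensembl identifier to symbols of GENCODE mouse release 21, and all 10 were found among 33293 gene identifiers. RNA of whole aorta was sequenced from male mice of 7 to 8 weeks kept on normal chow. There were 4 libraries from Apoe-knockout mice (Apoe_KO), which lack apolipoprotein E, the ligand by which lipoprotein remnants are cleared from plasma, and 5 from C57BL/6J wild-type mice (WT). Neither the allele nor the number of animals or pooled aortas behind a library is given in the labels, so p-values speak of the spread between these libraries, which may be technical. The question is which of these transcripts differ between aortas of the genotypes.

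NF-kappaB is a family of transcription factor dimers that inhibitors hold in the cytoplasm of resting cells. Signals from receptors for bacterial products, interleukin-1 or tumour necrosis factor activate the IkappaB kinase complex, the inhibitor is degraded, and the freed dimer enters the nucleus. Several of the genes it switches on encode its own inhibitors, so that the response is shut off again. In the arterial wall the pathway is known from endothelial cells, smooth muscle cells and macrophages of atherosclerotic plaques, and lymphocytes rely on it for activation and survival.

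Since feedback by NF-kappaB acts through DNA sites close to its target genes, the sequence just before the transcription start is shown for genes of the family that carry such a site. The window from 250 bases before to 50 bases after the start was searched on both strands for the 10-base kappaB consensus motif. Of the 10 genes, 7 were examined by their windows in the RefSeq table (GRCm38.p6). Nfkb1, Nfkbiz and Cd14 were not, and their sequence is not shown. A match was found in 5 of the 7 (Nfkbia, Tnfaip3, Tnip1, Rel and Nfkb2), and none in the windows of Rela and Nfkbie. Of all windows searched, 5.8% held a match, and 6.55% of genes had one in any of their windows. The lines below give the gene's own strand, 5′ to 3′, with the motif in capitals, for 120 bases ending at the base before the start of Nfkbia (chr12:55492648-55492767, minus strand), Tnfaip3 (chr10:19015411-19015530, minus strand) and Tnip1 (chr11:54962941-54963060, minus strand).
Nfkbia: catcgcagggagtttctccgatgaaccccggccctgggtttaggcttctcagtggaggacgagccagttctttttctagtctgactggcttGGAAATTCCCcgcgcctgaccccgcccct
Tnfaip3: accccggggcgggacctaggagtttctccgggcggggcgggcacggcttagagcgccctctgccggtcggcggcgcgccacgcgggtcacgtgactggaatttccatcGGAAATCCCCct
Tnip1: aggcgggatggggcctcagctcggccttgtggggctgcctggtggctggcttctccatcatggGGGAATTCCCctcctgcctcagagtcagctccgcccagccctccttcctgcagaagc

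The matches lay 20 to 29 bases before the start in Nfkbia, 3 to 12 bases before it in Tnfaip3 and 48 to 57 bases before it in Tnip1. For Rel and for the first of the annotated starts of Nfkb2, 30 bases around each match are shown (Rel, chr11:23771042-23771071, minus strand; Nfkb2, chr19:46304688-46304717 and chr19:46304716-46304745, plus strand). A further match of Nfkb2 lay near later starts of that gene and is not shown. The capitals of Rel mark overlapping matches, 82 to 92 bases before its start.
Rel: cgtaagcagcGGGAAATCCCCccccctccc
Nfkb2, first match: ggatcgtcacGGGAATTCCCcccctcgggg
Nfkb2, second match: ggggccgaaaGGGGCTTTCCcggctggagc

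A match describes letters in a window and is not a measured binding site. Of the 5 genes with a match, Nfkbia alone passed the test described below.

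The levels used here are FPKM, which scale reads to the exonic length of a gene and to the depth of the library. That length joins all annotated exons (12061 bases for Nfkb1), so levels of different genes compare only roughly. Depths recovered from the values were 17.0 to 19.8 M reads or fragments per library, and the 10 genes drew 69 to 3428 reads each per library. Apoe itself was at 6.22 ± 0.401 FPKM in Apoe_KO (SD, n = 4) and at 562.6 ± 54.0 FPKM in WT (SD, n = 5), and every library followed its label. The 8 smooth muscle markers that define the aortic media summed to 4976 to 6289 FPKM in Apoe_KO and 4845 to 5758 FPKM in WT. White adipocyte markers of the surrounding fat were also abundant, at 2169 to 4177 FPKM in Apoe_KO and 3488 to 5409 FPKM in WT. A pair of libraries stood apart by lymphocyte transcripts. The 8 B and plasma cell markers summed to 803 FPKM in Apoe_KO 4, against 25.2 to 63.8 FPKM in the rest of Apoe_KO, and to 2453 FPKM in WT 2, against 32.9 to 61.2 FPKM in the rest of WT. The 9 T and NK cell markers summed to 48.6 FPKM in Apoe_KO 4 and 60.6 FPKM in WT 2, and to 4.13 to 12.4 FPKM in the other 7 libraries. The test of each of the 10 genes, and the count of each gene list, is therefore given with and without these libraries.

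Of the 10 genes, all of which passed the filter on low levels, 2 were higher in Apoe_KO (Nfkbia and Cd14) and 0 lower (limma, adjusted p threshold 0.05). Over the 13383 genes tested, 3.43% were called higher and 3.92% lower, or 7.35% in either direction. The 10 genes were chosen with earlier results of these data known, so these shares are given for scale only. The median log2 fold change of the 10 genes was 0.094, against -0.069 over all genes tested. Of the 10, 8 were positive, against 4826 of the 13383 genes tested. The levels were not scaled further between libraries, and the median and share over all genes depend on that. With each library centred on its median, the median over all genes was -0.0012, and with quantile normalization it was -0.0044. Without Apoe_KO 4 and WT 2, Nfkbia alone of the 10 was called, where 1.51% of genes were called higher, and the median was 0.022. Nfkb1, Rel and Tnfaip3 then turned negative. Fold changes are differences of mean log2(FPKM + 1), Apoe_KO minus WT; the added 1 makes them too small for weakly expressed genes. In bulk RNA, a change in the number of cells of a type and a change in RNA per cell cannot be told apart.

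**Figure D1:**
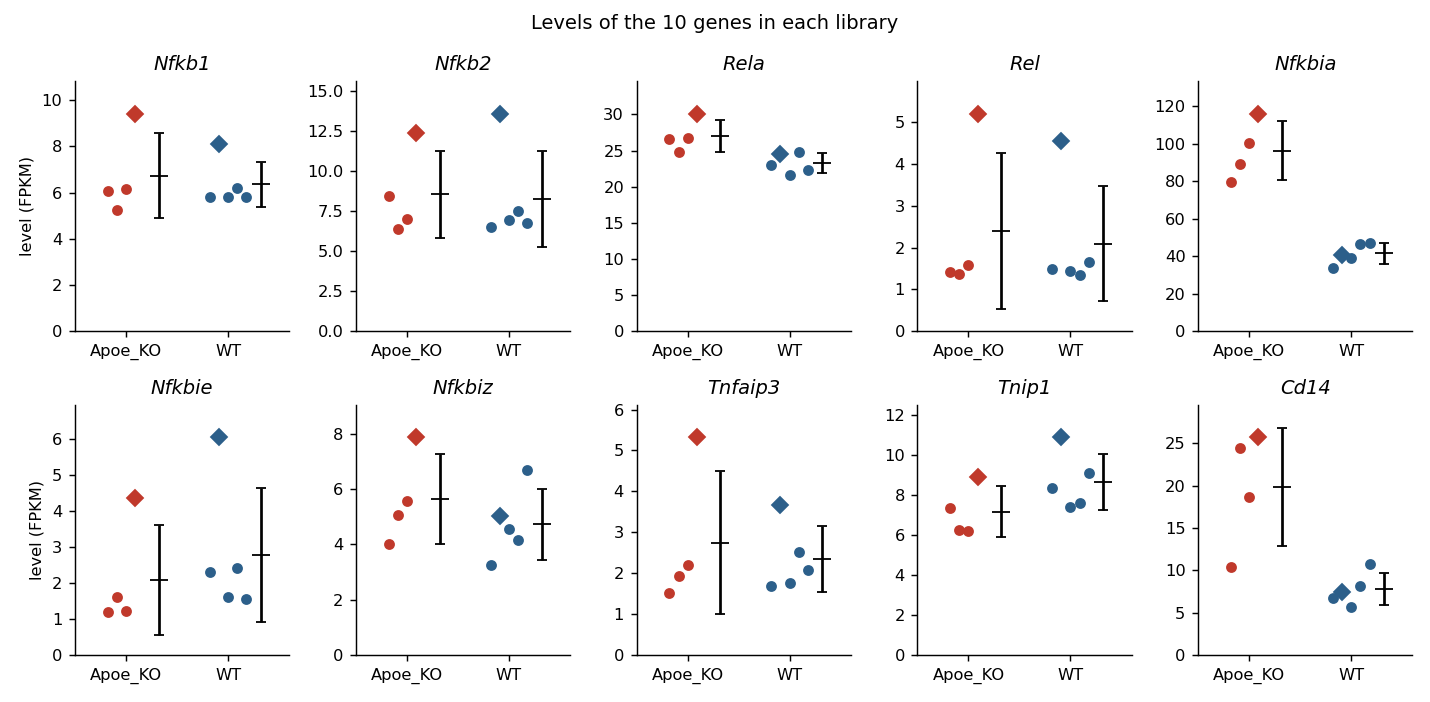
Level of each gene (y axis, FPKM, from 0) in the 4 Apoe_KO libraries (red, left) and the 5 WT libraries (blue, right), with the mean and SD in black; diamonds mark Apoe_KO 4 and WT 2, the libraries richest in lymphocyte transcript. Nfkbia and Rela separate the genotypes without overlap, whereas Rel and Nfkbie separate the diamonds from the other libraries.

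Nfkbia, the gene of IkappaB-alpha, the inhibitor that NF-kappaB re-induces within one cycle of activation, had the highest FPKM of the 10 and showed the clearest difference. It lies at chr12:55489410-55492647 (GRCm38, minus strand, 1610 exonic bases) and overlaps no exon of another gene. Its level was 79.7, 89.2, 100.5 and 116 FPKM in the Apoe_KO libraries 1 to 4, against 33.9, 40.6, 39.2, 46.7 and 46.8 FPKM in the WT libraries 1 to 5. The lowest Apoe_KO library lay above the highest WT library, and WT 2 was in the middle of its group. The means were 96.3 ± 15.6 FPKM in Apoe_KO and 41.4 ± 5.46 FPKM in WT (SD, n = 4 and 5). The log2 fold change was 1.19 (SE 0.13; limma adjusted p = 0.00132). Nfkbia was called in all 18 alternatives, with log2 fold changes of 1.10 to 1.28 and adjusted p of 0.000425 to 0.0136, the largest of these p without Apoe_KO 4 and WT 2.

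The other inhibitors of the same class did not pass. Nfkbie encodes IkappaB-epsilon, an inhibitor that holds mainly dimers of RelA and c-Rel (chr17:45555703-45563169, plus strand). It was at 1.18, 1.6, 1.21 and 4.36 FPKM in Apoe_KO, against 2.3, 6.05, 1.62, 2.42 and 1.55 FPKM in WT. The highest library of each group was the one richest in lymphocyte transcript, and the other libraries overlapped. The log2 fold change was -0.29 (SE 0.35; limma adjusted p = 0.650), and -0.34 (adjusted p = 0.217) without Apoe_KO 4 and WT 2. Nfkbiz encodes IkappaB-zeta, a nuclear protein that works with NF-kappaB on a set of secondary response genes (chr16:55811375-55838899, minus strand). It was at 4, 5.07, 5.58 and 7.87 FPKM in Apoe_KO, against 3.25, 5.02, 4.54, 4.14 and 6.7 FPKM in WT. The groups overlapped over most of their range, with a log2 fold change of 0.21 (SE 0.19; limma adjusted p = 0.550), or 0.081 (adjusted p = 0.858) without that pair of libraries.

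Tnfaip3 and Tnip1 encode a further brake. Tnfaip3 gives A20, a ubiquitin-editing enzyme that takes signalling complexes apart (chr10:19000910-19015657, minus strand), and Tnip1 gives ABIN-1, which binds ubiquitin chains and A20 (chr11:54910785-54962917, minus strand). Tnfaip3 was at 1.52, 1.94, 2.21 and 5.32 FPKM in Apoe_KO, against 1.69, 3.67, 1.77, 2.51 and 2.07 FPKM in WT. Apoe_KO 4 and WT 2 were the highest of their groups, and the log2 fold change was 0.098 (SE 0.27; limma adjusted p = 0.851), or -0.058 (adjusted p = 0.849) without both. Tnip1 was at 7.38, 6.24, 6.21 and 8.9 FPKM in Apoe_KO, against 8.36, 10.9, 7.42, 7.62 and 9.09 FPKM in WT. It did not pass (log2 fold change -0.24, SE 0.13; limma adjusted p = 0.271), although its estimate was negative in all 17 alternatives that tested it, from -0.34 to -0.17, and -0.26 (adjusted p = 0.168) without the pair. Tnfaip3 and Tnip1 carry the kappaB motif shown above, as Nfkbia does, and neither passed the test.

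**Figure D2:**
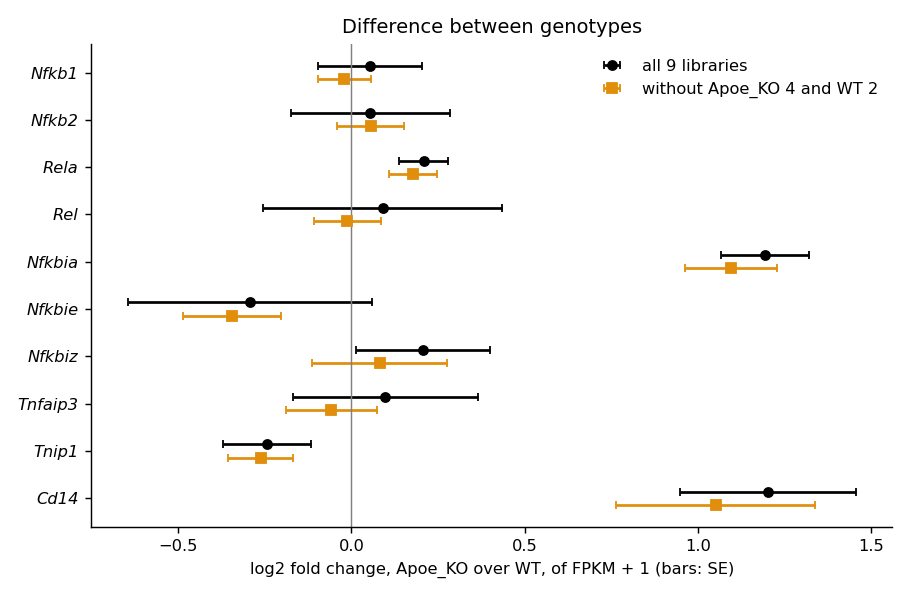
Log2 fold change of each gene, Apoe_KO over WT, on the log2(FPKM + 1) scale (x axis), with its SE, for all 9 libraries (black circles) and without Apoe_KO 4 and WT 2 (orange squares). Nfkbia stays at 1.19 and 1.10, while Nfkb1, Rel and Tnfaip3 change sign around 0.

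Among the subunits, Rela encodes p65, which carries the activation domain of the most common dimer (chr19:5637483-5648130, plus strand). It was at 26.6, 24.8, 26.7 and 30.1 FPKM in Apoe_KO, against 23, 24.5, 21.6, 24.8 and 22.3 FPKM in WT. The lowest Apoe_KO library, 24.81 FPKM, lay just above the highest WT library, 24.75 FPKM. Nfkbia and Rela were the 2 genes of the 10 whose groups did not overlap, and 12.4% of all genes tested were so separated. The log2 fold change of Rela was 0.21 (SE 0.070) and did not pass (limma adjusted p = 0.101). It passed with each library centred on its median (0.28, adjusted p = 0.0223) and with voom on the recovered reads (0.28, adjusted p = 0.0312), and was at 0.18 (adjusted p = 0.198) without Apoe_KO 4 and WT 2.

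Nfkb1 encodes p105, the precursor of p50, the usual partner of p65 (chr3:135584655-135691547, minus strand). It was at 6.06, 5.27, 6.17 and 9.42 FPKM in Apoe_KO, against 5.82, 8.1, 5.83, 6.2 and 5.83 FPKM in WT. Apart from Apoe_KO 4 and WT 2, the libraries lay within 5.27 to 6.20 FPKM, and the log2 fold change was 0.054 (SE 0.15; limma adjusted p = 0.854), or -0.020 (adjusted p = 0.915) without that pair. Nfkb2 encodes p100, the precursor of p52 of the slower non-canonical pathway (chr19:46304320-46312385, plus strand). It was at 8.43, 6.37, 7.02 and 12.4 FPKM in Apoe_KO, against 6.51, 13.6, 6.97, 7.49 and 6.75 FPKM in WT. Again the pair was highest, and the log2 fold change was 0.054 (SE 0.23; limma adjusted p = 0.906), or 0.055 (adjusted p = 0.800) without it. Exons of Nfkb2 overlap those of Psd and AC114539.1 on the other strand, and since it is not known whether counting used strand, its level is uncertain to that extent.

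Rel encodes c-Rel, the subunit known best from lymphocytes and myeloid cells (chr11:23736847-23770970, minus strand). It was at 1.43, 1.37, 1.59 and 5.21 FPKM in Apoe_KO, against 1.49, 4.55, 1.44, 1.34 and 1.66 FPKM in WT. The 7 libraries other than Apoe_KO 4 and WT 2 lay within 1.34 to 1.66 FPKM, across both genotypes. The log2 fold change was 0.090 (SE 0.35; limma adjusted p = 0.897) over all libraries. Without the pair it was -0.011, and its SE was 0.096 (adjusted p = 0.964).

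The libraries richest in lymphocyte transcript thus held the highest levels of much of the family. Apoe_KO 4 was the highest of its group for all 10 genes, and WT 2 the highest of its group for 6 of them (Nfkb1, Nfkb2, Rel, Nfkbie, Tnfaip3 and Tnip1). The share of all genes tested that were highest in these libraries was not counted. Sums of macrophage and endothelial markers were also highest of Apoe_KO in Apoe_KO 4. They were 554 and 342 FPKM, against 387 to 450 and 204 to 259 FPKM in Apoe_KO 1 to 3. So were the sums of the pathway lists, but not those of smooth muscle, fibroblast and adipocyte markers. In WT 2 the macrophage and endothelial sums were not highest. Rel in Apoe_KO 4 was 3.65 times the median of the other Apoe_KO libraries, and in WT 2 it was 3.11 times the median of the other WT libraries. For Nfkbie these ratios were 3.62 in Apoe_KO 4 and 3.08 in WT 2. At the other end, Rela had ratios of 1.13 in Apoe_KO 4 and 1.08 in WT 2, and Nfkbia 1.30 in Apoe_KO 4 and 0.945 in WT 2. Cd14 was at 1.38 times in Apoe_KO 4 and 1.00 times in WT 2. Lymphocyte markers moved with the levels of Rel, Nfkbie, Nfkb2 and Tnfaip3 in these libraries, and their part in them was not tested.

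**Figure D3:**
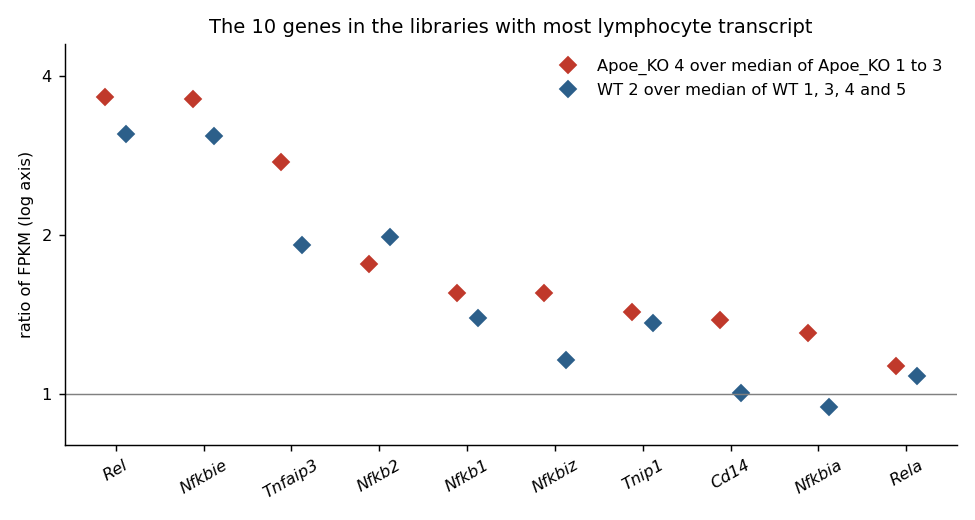
Ratio of FPKM (y axis, log scale) of Apoe_KO 4 to the median of the other Apoe_KO libraries (red) and of WT 2 to the median of the other WT libraries (blue), for each of the 10 genes in order of the first ratio. Rel and Nfkbie lie above 3 in both, whereas Rela lies at 1.13 and 1.08.

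The level of inhibitor relative to subunits followed from these values. The ratio of Nfkbia to Rela was 2.99, 3.60, 3.76 and 3.85 in Apoe_KO, against 1.47, 1.65, 1.82, 1.88 and 2.10 in WT. Every Apoe_KO library had the higher ratio, Apoe_KO 4 among them. Set against the sum of the 4 subunits, Nfkbia was at 1.87 to 2.42 times their level in Apoe_KO and 0.799 to 1.28 times in WT. The summed subunits themselves overlapped between genotypes, at 37.8 to 57.1 FPKM in Apoe_KO and 35.8 to 50.8 FPKM in WT. These ratios are descriptions of transcript levels and were not tested. Their size depends on the exonic lengths used.

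By median level the order in Apoe_KO was Nfkbia, Rela, Cd14, Nfkb2, Tnip1, Nfkb1, Nfkbiz, Tnfaip3, Rel and Nfkbie. In WT it was Nfkbia, Rela, Tnip1, Cd14, Nfkb2, Nfkb1, Nfkbiz, Nfkbie, Tnfaip3 and Rel. Nfkbia stood clear of Rela in both genotypes, and Rela stood clear of the next gene, Tnip1, in WT. In Apoe_KO the ranges of Rela and Cd14 overlapped. All neighbours below these overlapped in range in either genotype. Ranges leave out that the genes were measured in the same libraries, and Nfkb2 lay above Nfkb1 in every library of both genotypes. The order is one of FPKM and depends on the exonic lengths used.

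Cd14, the only receptor subunit among the 10, encodes the surface protein that hands bacterial lipopolysaccharide to TLR4 and MD-2, and is made mostly by monocytes and macrophages (chr18:36725067-36726798, minus strand). It was at 10.4, 24.5, 18.7 and 25.7 FPKM in Apoe_KO, against 6.76, 7.45, 5.71, 8.11 and 10.7 FPKM in WT. Apoe_KO 1 lay below WT 5, so that the groups overlapped by these libraries, and the other 3 Apoe_KO libraries were above every WT library. The log2 fold change was 1.20 (SE 0.25; limma adjusted p = 0.0238). The call was lost without any of Apoe_KO 3 (adjusted p = 0.0717), Apoe_KO 4 (0.0538), WT 1 (0.0549), WT 2 (0.0511) or WT 4 (0.0562), and without Apoe_KO 4 and WT 2 together (1.05, adjusted p = 0.0936). It was also lost with no filter on low levels (adjusted p = 0.0574), and the estimate was 1.01 or more in all 18 alternatives.

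Markers of macrophages were given beside Cd14, since it is a marker of these cells itself. The 16 other macrophage markers summed to 387 to 554 FPKM in Apoe_KO and 286 to 380 FPKM in WT, without overlap. Of these markers, all tested and none at 0, 3 were called higher and 0 lower, with a median log2 fold change of 0.20, or 1 higher and a median of 0.074 without Apoe_KO 4 and WT 2. As a percentage of this sum, Cd14 stood at 2.58, 6.32, 4.16 and 4.65% in Apoe_KO, against 2.19, 2.13, 1.999, 2.14 and 2.92% in WT. Apoe_KO 1 was within the WT range on this measure and the other 3 were above it. The part of macrophage number in the level of Cd14 was not tested. The partners of Cd14 at the membrane did not pass. Tlr4 averaged 8.87 ± 1.58 FPKM in Apoe_KO and 7.33 ± 0.238 FPKM in WT (SD, n = 4 and 5; log2 fold change 0.23, limma adjusted p = 0.215), and passed only without Apoe_KO 2 (adjusted p = 0.0138). Ly96, the gene of MD-2, averaged 2.55 ± 0.858 FPKM in Apoe_KO and 2.74 ± 0.569 FPKM in WT, with a log2 fold change of -0.092 (limma adjusted p = 0.784).

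**Figure D4:**
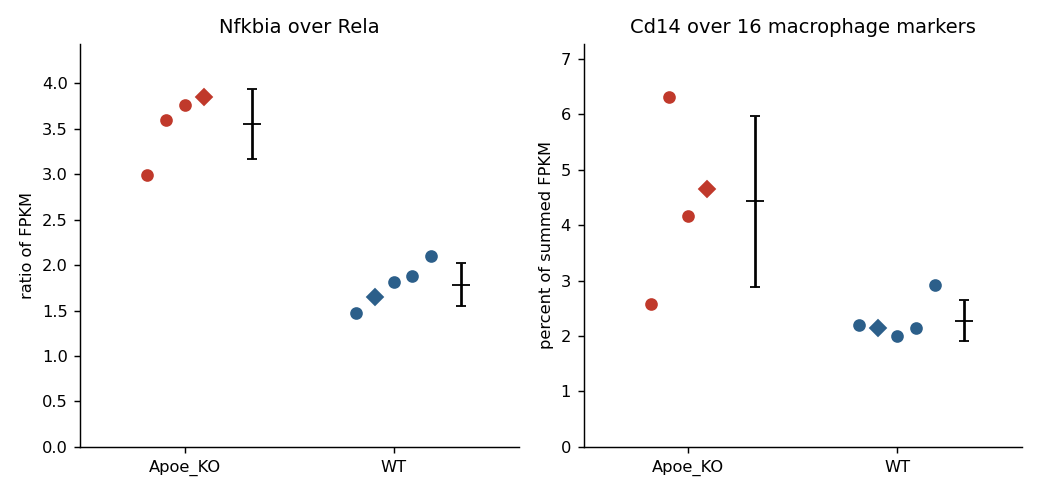
Left, Nfkbia divided by Rela (ratio of FPKM) and right, Cd14 as a percentage of the summed FPKM of 16 macrophage markers, in each Apoe_KO library (red, left) and WT library (blue, right), with mean and SD in black and diamonds for Apoe_KO 4 and WT 2. The first ratio is at least 2.99 in Apoe_KO and at most 2.10 in WT, while the second overlaps through Apoe_KO 1.

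The rest of the pathway was taken from lists by role. The other receptors and co-receptors had 1 of 10 tested genes higher and 0 lower (median log2 fold change -0.014). Il1r1, the signalling receptor of interleukin-1, was at 13.2, 10, 13.3 and 15 FPKM in Apoe_KO, against 8.68, 8.53, 9.22, 8.18 and 10 FPKM in WT. Apoe_KO 2 and WT 5 nearly met, at 10.05 and 10.03 FPKM. Its log2 fold change was 0.47 (SE 0.11; limma adjusted p = 0.0266). The call was lost without any one of Apoe_KO 1, 3 and 4 and WT 1, 2 and 4 (adjusted p from 0.0581 to 0.0845), and without Apoe_KO 4 and WT 2 together (0.103) or with no filter (0.0727).

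Among the adaptors that link receptors to kinases, 0 of 9 were higher and 1 was lower (median -0.016). Tradd, the adaptor of the tumour necrosis factor receptor, was at 2.58, 2.51, 2.93 and 3.01 FPKM in Apoe_KO, against 4.47, 4.13, 4.01, 4.51 and 3.14 FPKM in WT. The groups did not overlap, and WT 5 was nearest to Apoe_KO. Its log2 fold change was -0.42 (SE 0.099; limma adjusted p = 0.0329). The call was lost without any one of Apoe_KO 1 to 3 and WT 1 to 4 (adjusted p from 0.0574 to 0.0811) and without Apoe_KO 4 and WT 2 together (-0.45, adjusted p = 0.0828), and held in 4 of 17 alternatives.

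No kinase of the 15 tested passed in either direction (median -0.0056). The catalytic and scaffold subunits of the IkappaB kinase complex, Chuk, Ikbkb and Ikbkg, had log2 fold changes of -0.081, 0.13 and -0.056 (limma adjusted p = 0.520, 0.596 and 0.653). The smallest p in this list were those of Irak2, a kinase downstream of the interleukin-1 and Toll-like receptors, at 0.24 (adjusted p = 0.144), and Tab2, which docks the kinase TAK1 onto ubiquitin chains, at 0.18 (adjusted p = 0.165).

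Of the other NF-kappaB and IkappaB proteins, 0 of 4 tested passed (median 0.25). Nfkbib, the gene of IkappaB-beta, averaged 6.95 ± 0.890 FPKM in Apoe_KO and 5.14 ± 0.799 FPKM in WT (SD, n = 4 and 5), with a log2 fold change of 0.37 (limma adjusted p = 0.0727). It passed with median centring (0.44, adjusted p = 0.0173), quantile normalization (0.45, adjusted p = 0.0187) and voom on recovered reads (0.50, adjusted p = 0.0350), and overlaps Sirt2 and Ccer2 on the other strand. Nfkbil1, named for its likeness to IkappaB, had 0.21 (adjusted p = 0.365). Relb, the subunit that pairs with p52, had 0.016 (adjusted p = 0.972), and Bcl3, a nuclear IkappaB relative, 0.30 (adjusted p = 0.580). Like Rel, Relb and Bcl3 were highest in Apoe_KO 4 (5.46 and 6.36 FPKM) and in WT 2 (5.87 and 4.35 FPKM).

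Of 12 other brakes on the pathway, 0 passed (median 0.073). Irak3, which blocks the receptor kinases, was at 5.04, 5.96, 5.33 and 6.79 FPKM in Apoe_KO, against 3.92, 4.1, 4.2, 4.81 and 4.95 FPKM in WT. The groups did not overlap, and the log2 fold change was 0.33 (SE 0.096; limma adjusted p = 0.0682). It passed with median centring (adjusted p = 0.0441), quantile normalization (0.0476) and voom (0.0419). Tax1bp1, a ubiquitin-binding partner of A20, had 0.17 (adjusted p = 0.172) and passed with median centring alone (adjusted p = 0.0420). Exons of Irak2, Irak3, Ikbkg, Nfkbil1, Bcl3, Tax1bp1, Icam1 and Vcam1 also overlap those of genes on the other strand.

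**Figure D5:**
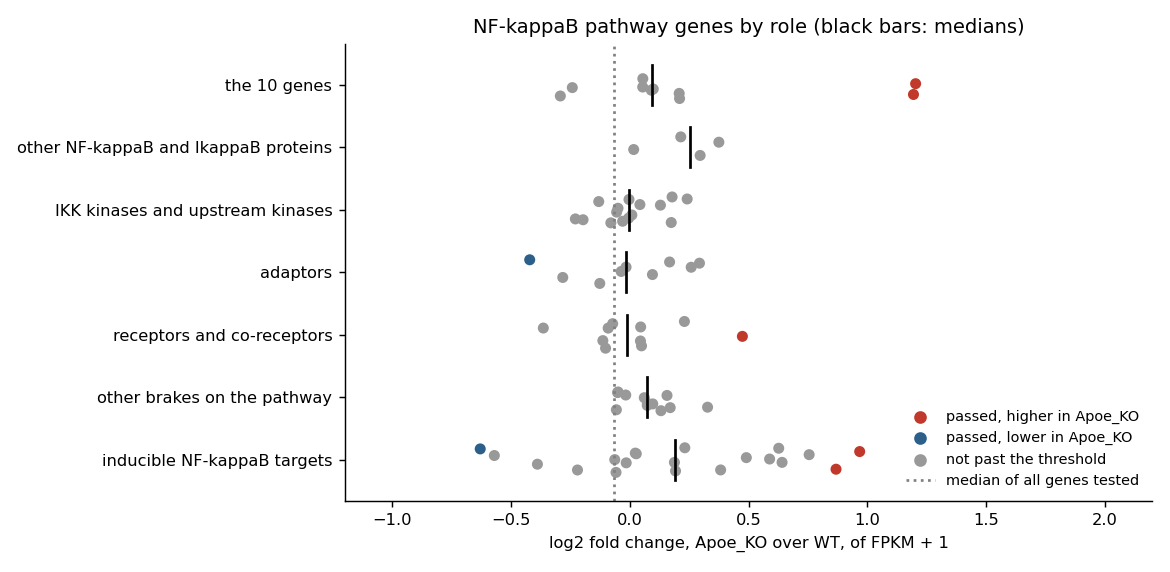
Log2 fold change, Apoe_KO over WT, of log2(FPKM + 1) (x axis) for each tested gene of the NF-kappaB pathway, in rows by role, with black bars at the list medians and a dotted line at the median of all genes tested, -0.069. Red points passed the test as higher in Apoe_KO and blue ones as lower; Nfkbia and Cd14 are the only points beyond 1.

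Among 28 inducible genes known as NF-kappaB targets, 20 were tested, 2 were higher and 1 lower in Apoe_KO, with a median of 0.19. Bcl2l1, which encodes the survival protein Bcl-xL, was at 25.1, 25.1, 31.6 and 31.1 FPKM in Apoe_KO, against 13, 13, 13.7, 14.6 and 15.2 FPKM in WT. The lowest Apoe_KO library was well above the highest WT library (log2 fold change 0.97, SE 0.090; limma adjusted p = 0.000735). Ier3, a stress-inducible survival gene, was at 31.6, 28.4, 43.9 and 33.3 FPKM in Apoe_KO, against 17, 17.5, 19.3, 17.1 and 19.7 FPKM in WT. It too was separated (0.87, SE 0.11; limma adjusted p = 0.00282), and both genes were called in all 18 alternatives.

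Nos2, the inducible nitric oxide synthase gene, was at 0.279, 0.476, 0.409 and 0.531 FPKM in Apoe_KO, against 1.08, 1.6, 1.38, 1.24 and 0.779 FPKM in WT. It was the target called lower (log2 fold change -0.63, SE 0.13; limma adjusted p = 0.0198). Its levels lay near the filter of 1 FPKM in 4 libraries, which it met only through WT 1 to 4. Its entry into the test, and so the count of 1 lower target, thus depended on its level in WT. Its call was lost without Apoe_KO 1 (adjusted p = 0.0503), Apoe_KO 3 (0.0623) or WT 4 (0.0526), and without Apoe_KO 4 and WT 2 together (0.0634) or with quantile normalization (0.0846).

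Targets that mark inflamed endothelium did not pass. Icam1 averaged 10.1 ± 2.75 FPKM in Apoe_KO and 8.78 ± 2.19 FPKM in WT (log2 fold change 0.19, limma adjusted p = 0.612). Vcam1 averaged 12.8 ± 5.58 FPKM in Apoe_KO and 10.8 ± 2.67 FPKM in WT (0.19, limma adjusted p = 0.703), each with SD over 4 and 5 libraries. Sele, named after its values were seen, was at 1.3, 4.2, 1 and 4.49 FPKM in Apoe_KO, against 0.295 to 2.03 FPKM in WT. Apoe_KO 2 and 4 lay above every WT library and the others within the WT range (log2 fold change 0.75, limma adjusted p = 0.222). The monocyte chemokine gene Ccl2 varied within Apoe_KO, from 1.26 FPKM in Apoe_KO 1 to 8.71 FPKM in Apoe_KO 2, against 1.33 to 3.45 FPKM in WT (0.64, limma adjusted p = 0.367). Sod2, the mitochondrial superoxide dismutase gene, had a log2 fold change of -0.22 (limma adjusted p = 0.323). Without Apoe_KO 4 and WT 2, Bcl2l1 and Ier3 were the only genes called in the pathway lists beside Nfkbia. The 8 targets Ccl20, Cxcl2, Il6, Il1b, Tnf, Csf2, Bcl2a1b and Saa3 were below the filter. Among them Il6, the gene of interleukin-6, is named after its values were seen. It was at 0.0422, 7.12, 1.22 and 5.21 FPKM in Apoe_KO, against 0.0833, 0.266, 0.0874, 0.345 and 0.819 FPKM in WT. Apoe_KO 2, 3 and 4 lay above every WT library and Apoe_KO 1 below every one. In the fit with no filter its log2 fold change was 1.34 (SE 0.54; limma adjusted p = 0.311), and none of the 8 passed there.

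The genes nearest to Nfkbia in pattern were found by the root mean square difference of log2(FPKM + 1) over the 9 libraries, after each gene was centred on its mean. They were Dok1, a docking adaptor of tyrosine kinase signalling (difference 0.123), Ddit4, an inhibitor of mTORC1 (0.145), Bcl2l1 (0.153), Cebpd, a transcription factor of the acute phase response (0.168), and Sdc4, a heparan sulphate proteoglycan (0.169). Dok1 averaged 20.7 ± 3.38 FPKM in Apoe_KO and 7.63 ± 0.809 FPKM in WT (SD, n = 4 and 5; log2 fold change 1.32). Ddit4 averaged 92.7 ± 22.7 FPKM in Apoe_KO and 37.0 ± 8.45 FPKM in WT (1.30). None of these 5 genes overlapped between genotypes, and all were called (limma adjusted p from 0.000538 to 0.0145). Since likeness to Nfkbia over the same libraries picked them, their separation and calls follow largely from that choice. Cebpd, which overlaps Spidr on the other strand, lost its call without Apoe_KO 3 (adjusted p = 0.0525) and without Apoe_KO 4 and WT 2 together (0.95, adjusted p = 0.0717). No other member of the family was among them.

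Stress and hormone response genes are given beside Nfkbia. Their lists, like that of the 10 genes, were chosen with earlier results of these data known. Of 12 heat shock genes, 10 were higher and 0 lower, and their summed level was 1597 to 2130 FPKM in Apoe_KO and 740 to 931 FPKM in WT. Of 12 genes known to be induced through the glucocorticoid receptor, as Nfkbia also is, 10 were higher and 0 lower, with a median of 0.99. That list summed to 866 to 1156 FPKM in Apoe_KO and 404 to 645 FPKM in WT. In Apoe_KO 1 to 4 its sum was 866, 1024, 1089 and 1156 FPKM, rising in the order of Nfkbia. The heat shock sum did not keep that order, at 1976, 1766, 1597 and 2130 FPKM. In WT neither sum kept the order of Nfkbia. Of 20 immediate early genes, 3 were higher and 0 lower (median 0.21), and their sums overlapped, at 453 to 739 FPKM in Apoe_KO and 307 to 935 FPKM in WT. Without Apoe_KO 4 and WT 2, 9 of the heat shock genes, 5 of the glucocorticoid-induced genes and 2 of the immediate early genes were called, all higher. The part of these responses in the level of Nfkbia was not tested.

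Other cell types of the sample are given by their marker lists. White adipocyte markers had 0 of 8 higher and 3 lower (median -0.53), and brown adipocyte markers 0 of 7 called (median -0.14). Endothelial markers had 1 of 8 lower (median -0.38), smooth muscle markers 1 of 8 higher (median 0.20) and fibroblast markers 1 of 8 lower (median 0.039). Without Apoe_KO 4 and WT 2, 1 white adipocyte marker and 2 endothelial markers were called lower, and 0 of the smooth muscle, fibroblast and brown adipocyte markers were called. None of the tested monocyte and neutrophil (3), T and NK cell (4) or B and plasma cell (5) markers passed, with or without these libraries. Monocyte and neutrophil markers summed to 9.17 to 35.8 FPKM in Apoe_KO and 13.2 to 32.02 FPKM in WT, highest again in Apoe_KO 4 and WT 2.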

How the data were processed

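The 9 aortic RNA-seq libraries were 4 Apoe_KO and 5 WT. The labels' protocol describes rRNA depletion, whereas the labels' molecule field names polyA RNA. The submitters' processing notes name GRCm38 and limma; aligner, counter, annotation and strandedness were not given in the sources used here. Deposited by the authors was 1 table with no unit in its header, taken as FPKM from its values: times the exonic length in GENCODE release 21, whole reads within 0.1 came out for 97.6% to 97.9% of values up to 50 reads at 1 depth per library. Of 33293 identifiers 33240 were in that annotation.

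The 13383 genes that reached 1 FPKM in 4 or more libraries entered limma 3.58.1 (R 4.3.3, trend and robust options) as log2(FPKM + 1), with genotype as the only term and Benjamini-Hochberg adjustment at 0.05. The steps were tested on simulated data. The alternatives were the replicate block, each library left out, WT 2 and Apoe_KO 4 left out, library weights, quantile normalization, median centring, another pseudocount (0.1), another filter (10 FPKM) or none, and voom with TMM scaling on recovered reads.

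The 10 genes and all lists were chosen with earlier results of these data known. The rule for named genes took the 10 genes, Apoe, the 5 genes nearest to Nfkbia, and per pathway list up to 4 called genes by smallest p or else the 2 of smallest p. Lists of context and cell type genes are given by counts and sums, although the rule allowed 2 names each. Relb, Bcl3, Chuk, Ikbkb, Ikbkg, Tlr4, Ly96, Icam1, Vcam1, Ccl2 and Sod2 were added for their role. Il6 and Sele were added after their values were seen. Python 3.11.15, pandas 2.3.3 and matplotlib 3.10.9 were used for tables and plots.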

Additional observations from a re-analysis of the deposited data

Results flagged for a closer look

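In 37 of the genes named in the text, Il6 and Sele not among them, each group was searched for a library far from the rest of its group. The search used Dixon's test at 95%. Of 74 groups 10 held one, and chance flags about 1 in 20. These groups are the same 9 libraries seen through different genes and are not independent, so that rate is for scale only. Of the 10 flagged groups, 6 were in the NF-kappaB genes. In Apoe_KO 4 these were Rel at 5.21 FPKM and Nfkbie at 4.36 FPKM, each the highest of its group. In WT 2 they were Rel at 4.55 FPKM, Nfkbie at 6.05 FPKM, Nfkb1 at 8.10 FPKM and Nfkb2 at 13.6 FPKM. Relb was flagged in Apoe_KO 4 at 5.46 FPKM and in WT 2 at 5.87 FPKM, and Ikbkb in WT 2 at 4.55 FPKM. Apoe_KO 4 and WT 2 are the libraries richest in B, plasma, T and NK cell markers, whose part in these values was not tested. The low value of Ly96 in WT 3, 1.77 FPKM, was the other.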

How the results depend on the processing

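Nfkbia kept its call in all 18 alternatives, and of the 10 genes 2 were called higher except without WT 2 and Apoe_KO 4 (1), with no filter (1), and in the leave-one-out fits, which gave 1 to 2, and 3 with Rela under median centring and under voom. Over all genes 459 were called higher and 524 lower. Leaving out each library gave 210 to 580 higher and 179 to 678 lower. Without WT 2 and Apoe_KO 4 there were 202 higher and 165 lower, with no filter 247 and 198, with library weights 702 and 1055, and with voom 725 higher. Lower calls were 220 with a filter of 10 FPKM, 269 with median centring and 240 with quantile normalization. Higher calls made up 46.7% of calls, but 70.1% with median centring and 66.9% with quantile normalization.

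Same-numbered libraries did not deviate together (correlation across genes -0.267 to 0.259, while Apoe_KO 4 and WT 2 had 0.609), so the numbers were not taken as pairs. The replicate block, over 8 libraries, called 120 genes higher and 61 lower, and both Nfkbia and Cd14 of the 10. Under it Il1r1 (adjusted p = 0.106), Tradd (0.0829) and Nos2 (0.0662) lost their calls.

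Signs changed for estimates near 0, none of them called. Without Apoe_KO 4 the log2 fold changes were -0.099 for Nfkb1, -0.12 for Nfkb2, -0.24 for Rel, -0.19 for Tnfaip3, -0.16 for Relb and -0.061 for Vcam1. Without the pair they were -0.020 for Nfkb1, -0.011 for Rel, -0.058 for Tnfaip3, -0.0013 for Relb and -0.0017 for Vcam1. Nfkb2 was at -0.0092 without WT 1, and Tnfaip3 at -0.0097 and Relb at -0.017 with library weights. Relb was at -0.037, -0.00080 and -0.057 without WT 3, 4 and 5, and at -0.057 with the block. Ikbkg was at 0.012 with median centring and 0.0099 with quantile normalization. Ly96 was at 0.0025 without Apoe_KO 1 and 0.018 with quantile normalization. Over the fits that left out 1 library each, the estimates ran from -0.099 to 0.15 for Nfkb1, -0.12 to 0.23 for Nfkb2, -0.24 to 0.32 for Rel, -0.19 to 0.26 for Tnfaip3, -0.16 to 0.17 for Relb, -0.23 to 0.0025 for Ly96 and -0.061 to 0.34 for Vcam1. Where a call or sign changed, the cause was not tested. The depth gave 69 reads or more to each of the 10 genes in every library. The part of counting in the spread between libraries was not tested.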
